A study of Mus musculus with 79 samples.

Results

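The stress main effect in the medial prefrontal cortex (mPFC) is the difference between all mice that went through chronic social defeat stress (CSDS) and all control (CTRL) mice, with saline or ketamine treatment as a covariate. Libraries were chosen by their titles alone, 19 of CSDS mice (10 saline, 9 ketamine) and 20 of CTRL mice (10 saline, 10 ketamine), which makes 39 mPFC libraries of 79 in the series. The other 40 libraries come from the ventral hippocampus (vHipp) of the same cohort, and the mPFC of mouse 5 was not analysed here. All mice were wild-type males of the outbred CD-1 (ICR) stock, 9 to 10 weeks old, housed 4 to a cage. CSDS mice were defeated by an aggressor on 21 days and went back to their own cage group after each encounter. Every group of 4 then lived in a social box (SB), an enriched arena with video tracking, and after 4 days each mouse received a single injection of ketamine (10 mg per kg) or saline. Punches of 1 mm were taken from the mPFC 7 days after the injection, so the comparison asks what CSDS had left in bulk mRNA more than a week after the last defeat. CSDS and CTRL mice lived in different cages and boxes, 5 groups per stress condition. Social group thus lies within stress and cannot enter beside it as a covariate. Unless stated, p-values treat mice of one cage as independent, which ignores any spread between groups. Social rank was not used here. Treatments are those of the labels, and for some mouse numbers the paper prints the other treatment with the same stress group. This was not resolved here and touches every value given by treatment and, through the treatment covariate, the pooled values as well.

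The mPFC weighs threat, reward and social information and sends excitatory projections to the amygdala, striatum and brainstem. Chronic stress is known to shrink apical dendrites of its pyramidal neurons, to alter their excitatory and inhibitory input, and to act partly through glucocorticoid receptors, which switch target genes such as *Fkbp5* on and off. Neuronal firing induces immediate early genes, a set of transcription factors and synaptic proteins that is read as a trace of recent activity. Bulk tissue holds neurons, glia, vessels and, at its edges, meninges, and in such samples fewer cells of a type and less RNA per cell cannot be told apart.

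Total counts lay between 15498349 and 34501588 in CSDS mice and between 11726129 and 34135805 in CTRL mice, and a permutation test of their means gave p = 0.694 (100000 resamples, two-sided). Levels are given as CPM, counts scaled to the library total after TMM normalization, and differences as LFC, the log2 fold change of CSDS over CTRL. The first principal component held 19.1% of the variance and the second 14.6%, and CSDS and CTRL mice overlapped on both (permutation p = 0.727 and 0.629). Mouse 1, a CSDS mouse treated with ketamine, stood apart on the second component. Excitatory and interneuron markers of cortex were present in every library, with a summed level of 2378 to 3010 CPM for 14 excitatory layer markers and 825 to 1191 CPM for 14 interneuron markers.

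No gene passed an adjusted p under 0.05 in the quasi-likelihood test of edgeR, adjusted after Benjamini and Hochberg over 28993 genes (0%), and DESeq2 also called 0. Without adjustment, 920 genes (3.17%) had a p under 0.05, with 420 (1.45%) higher under CSDS and 500 (1.72%) lower, and DESeq2 counted 641. Most of these, 654, had a mean below 1 CPM. Among 15691 genes with a mean of at least 1 CPM, 266 (1.70%) had a p under 0.05, with 179 higher and 87 lower. If no gene differed and p-values were spread evenly, a fraction of 0.05 of genes would have a p under 0.05. The shares of 3.17% and 1.70% were both below that fraction, so neither count is an excess over chance. All genes named here for a p under 0.05 are therefore candidates by rank, and each p is unadjusted unless stated.

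In this edgeR fit, which treats mice of one cage as independent, the measurements set a bound on the difference between CSDS and CTRL mice. Intervals that allow for cage are not given here and may be wider. For 15145 of the 15691 genes of at least 1 CPM (96.5%), the 95% interval of the LFC lay within 0.5 of 0 on either side, a fold of 1.41, and for 99.8% it lay within 1. Only 16 of these genes had an absolute LFC over 0.5, and 4 had one over 1, *H2-T22*, *Glp1r*, *Ttr* and *Ano2*. *Ano2* encodes a calcium-activated chloride channel, and its LFC was -1.12 (p = 0.0162). It is named for its size alone, after its values were seen, and the size rested on CTRL mouse 26 at 16.3 CPM, with CTRL mouse 35 at 3.02 CPM and all others at 1.28 CPM or less. Without mouse 26 the LFC of *Ano2* was -0.21 (p = 0.414). The median standard error of the LFC was 0.0399 for genes of 100 CPM and more, 0.0459 from 10 to 100 CPM, 0.105 from 1 to 10 CPM and 0.405 under 1 CPM.

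The 24 genes of smallest p, 12 higher and 12 lower in CSDS mice, had a median absolute LFC of 0.25, and 19 of them were under 0.5. The higher genes were *Apln*, *Gm4737*, *Gm15832*, *H2-T22*, *Tstd2*, *Aasdh*, *H2-T23*, *Cys1*, *Egr2*, *Fam189a2*, *Ndufaf1* and *Prim2*. The lower genes were *Aif1*, *Pard6b*, *Slc25a24*, *Rab3c*, *Glp1r*, *Mtbp*, *Gm12522*, *Ahcy*, *Ttr*, *Cd274*, *Slc16a13* and *9330118I20Rik*. Their p-values are those of the rule that chose them and serve as a description.

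**Figure D1:**
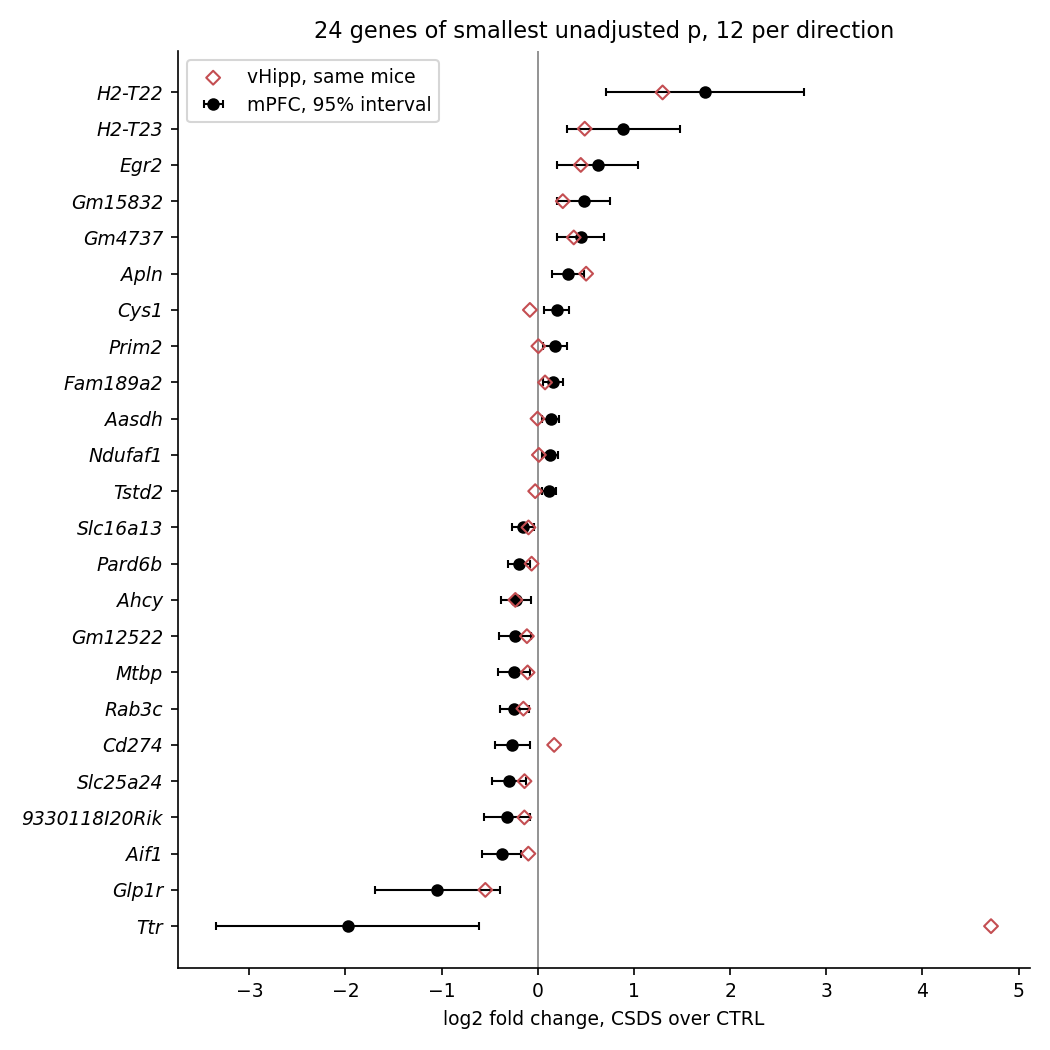
Log2 fold change of CSDS over CTRL in the mPFC (filled circles, bars are 95% intervals) for the 24 genes of smallest p, with the vHipp value of the same cohort as open diamonds. Most genes lie within 0.5 of 0, while *H2-T22*, *Glp1r* and *Ttr* have wide intervals, and *Ttr* stands at 4.71 in the vHipp against -1.98 in the mPFC.

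Of the higher genes, *Apln* had the smallest p. *Apln*, on the X chromosome (chrX:48025146-48034853, minus strand, GRCm38), encodes apelin, a secreted peptide that acts on vessels, fluid balance and stress circuits through the receptor encoded by *Aplnr*. It ranged from 9.87 to 19.0 CPM in CSDS mice (median 13.9) and from 5.98 to 16.1 CPM in CTRL mice (median 11.6). The groups overlapped, with 16 of 19 CSDS mice above the CTRL median. The LFC was 0.31 (SE 0.0816, 95% interval 0.15 to 0.48, p = 4.39e-04), which corresponds to a level 24.1% higher.

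The *Apln* difference had the same sign with both treatments, with an LFC of 0.25 with saline (p = 0.0328) and 0.37 with ketamine (p = 0.00291), and the difference between treatments was within error (p = 0.475). In the vHipp, whose libraries had no part in the choice of the gene but come from the same mice, *Apln* had an LFC of 0.50 (p = 3.63e-04, adjusted p = 0.299). *Aplnr* itself, named outside the rule as the receptor, had an LFC of -0.08 in the mPFC (95% interval -0.57 to 0.42) at a median of 0.399 CPM in CSDS and 0.341 CPM in CTRL mice, and of -0.56 in the vHipp (p = 0.0112).

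*Glp1r*, which encodes the receptor of the satiety peptide GLP-1, lay at 0.636 to 2.92 CPM in CSDS mice (median 1.69) and at 1.25 to 25.7 CPM in CTRL mice (median 2.19). Of 19 CSDS mice, 16 were below the CTRL median, and 2 CTRL mice stood far above the rest, mouse 26 at 25.7 CPM and mouse 35 at 9.07 CPM. The LFC of -1.05 (SE 0.323, p = 0.00226) was -0.53 without mouse 26. In the vHipp it was -0.55 (p = 0.0141).

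Among the lower genes, *Aif1* had the smallest p. It encodes IBA1, an actin-binding protein used to stain microglia, and lies in the major histocompatibility region (chr17:35170991-35176068). Levels were 4.62 to 12.4 CPM in CSDS mice (median 9.08) and 8.12 to 15.6 CPM in CTRL mice (median 10.2). The ranges overlapped, with 15 of 19 CSDS mice below the CTRL median. The LFC was -0.38 (SE 0.0989, 95% interval -0.58 to -0.18, p = 4.39e-04), at -0.33 with saline (p = 0.0218) and -0.43 with ketamine (p = 0.00487). In the vHipp it was -0.10 (p = 0.343), and the difference between the regions did not pass (p = 0.0679).

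*Aif1* stood alone among microglial genes. Of 18 markers, among them *Cx3cr1*, *P2ry12*, *Tmem119*, *Csf1r* and the complement genes *C1qa* to *C1qc*, *Aif1* was the only one with a p under 0.05, 11 had an LFC above 0, and their median LFC was 0.02. The summed level of the 18 markers was 473 ± 61.1 CPM in CSDS mice (SD, n = 19) and 469 ± 66.9 CPM in CTRL mice (SD, n = 20), with a permutation p of 0.849 (adjusted over 10 lists 0.934). The difference between these sums was far smaller than the spread between mice.

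*Rab3c* encodes a small GTPase of synaptic vesicles and was the only gene of the 24 with a mean above 100 CPM. It ranged from 257 to 580 CPM in CSDS mice (median 390) and from 367 to 609 CPM in CTRL mice (median 446). In spite of the overlap, 16 of 19 CSDS mice were below the CTRL median. The LFC was -0.25 (SE 0.0752, p = 0.00213), with -0.12 under saline (p = 0.243) and -0.38 under ketamine (p = 8.60e-04).

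*Pard6b*, a scaffold of the polarity complex, was at 4.27 to 5.81 CPM in CSDS mice (median 4.84) and 4.41 to 6.52 CPM in CTRL mice (median 5.77). Only 1 of 19 CSDS mice was above the CTRL median, with an LFC of -0.20 (p = 0.00103). *Ahcy*, which clears S-adenosylhomocysteine after methyl transfer, was at 6.32 to 11.5 CPM (median 7.80) against 6.97 to 12.8 CPM (median 10.1), and 17 of 19 CSDS mice were below the CTRL median. Its LFC was -0.23 in both regions (mPFC p = 0.00556, vHipp p = 0.00756).

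*Slc25a24*, a mitochondrial carrier of ATP-Mg and phosphate, had an LFC of -0.30 (p = 0.00120), close to -0.29 with saline and -0.32 with ketamine. *Slc16a13*, a monocarboxylate transporter, stood at -0.15 (p = 0.00780). *Mtbp*, named for its binding of MDM2, was at -0.24 (p = 0.00485), and the transcripts *Gm12522* and *9330118I20Rik*, annotated as noncoding, were at -0.24 and -0.32. *Cd274* encodes PD-L1, a ligand that restrains T cells, and had an LFC of -0.26 (p = 0.00598), with -0.06 under saline and -0.48 under ketamine.

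On the higher side, *Gm4737*, a predicted protein-coding gene, was at 3.35 to 7.28 CPM in CSDS mice (median 5.79) and at 0.762 to 6.27 CPM in CTRL mice (median 4.45). Despite overlapping ranges, 17 of 19 CSDS mice were above the CTRL median, and the LFC was 0.44 (SE 0.123, p = 8.10e-04). Its vHipp LFC was 0.37 (p = 0.00274). *Cys1*, which encodes the ciliary protein cystin, was at 6.19 to 12.5 CPM (median 9.13) against 5.66 to 9.37 CPM (median 8.29), with an LFC of 0.20 (p = 0.00435). In the vHipp *Cys1* was at -0.08, and the difference between the regions had a p of 0.00642.

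*Ndufaf1*, an assembly factor of respiratory complex I, had an LFC of 0.12 (p = 0.00497), *Prim2*, a subunit of DNA primase, 0.18 (p = 0.00520), and *Aasdh*, an acyl-CoA synthetase family member, 0.14 (p = 0.00367). *Tstd2*, which carries a sulfurtransferase domain, stood at 0.12 (p = 0.00238) and *Fam189a2* at 0.16 (p = 0.00487). These 5 differences were between 8.42% and 13.6% of the CTRL level. *Gm15832*, annotated as noncoding, had an LFC of 0.82 with saline and 0.11 with ketamine (p of the difference = 0.00897, adjusted over all genes 0.898), and its 4 highest levels, up to 5.39 CPM in mouse 13, were all in saline-treated CSDS mice.

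**Figure D2:**
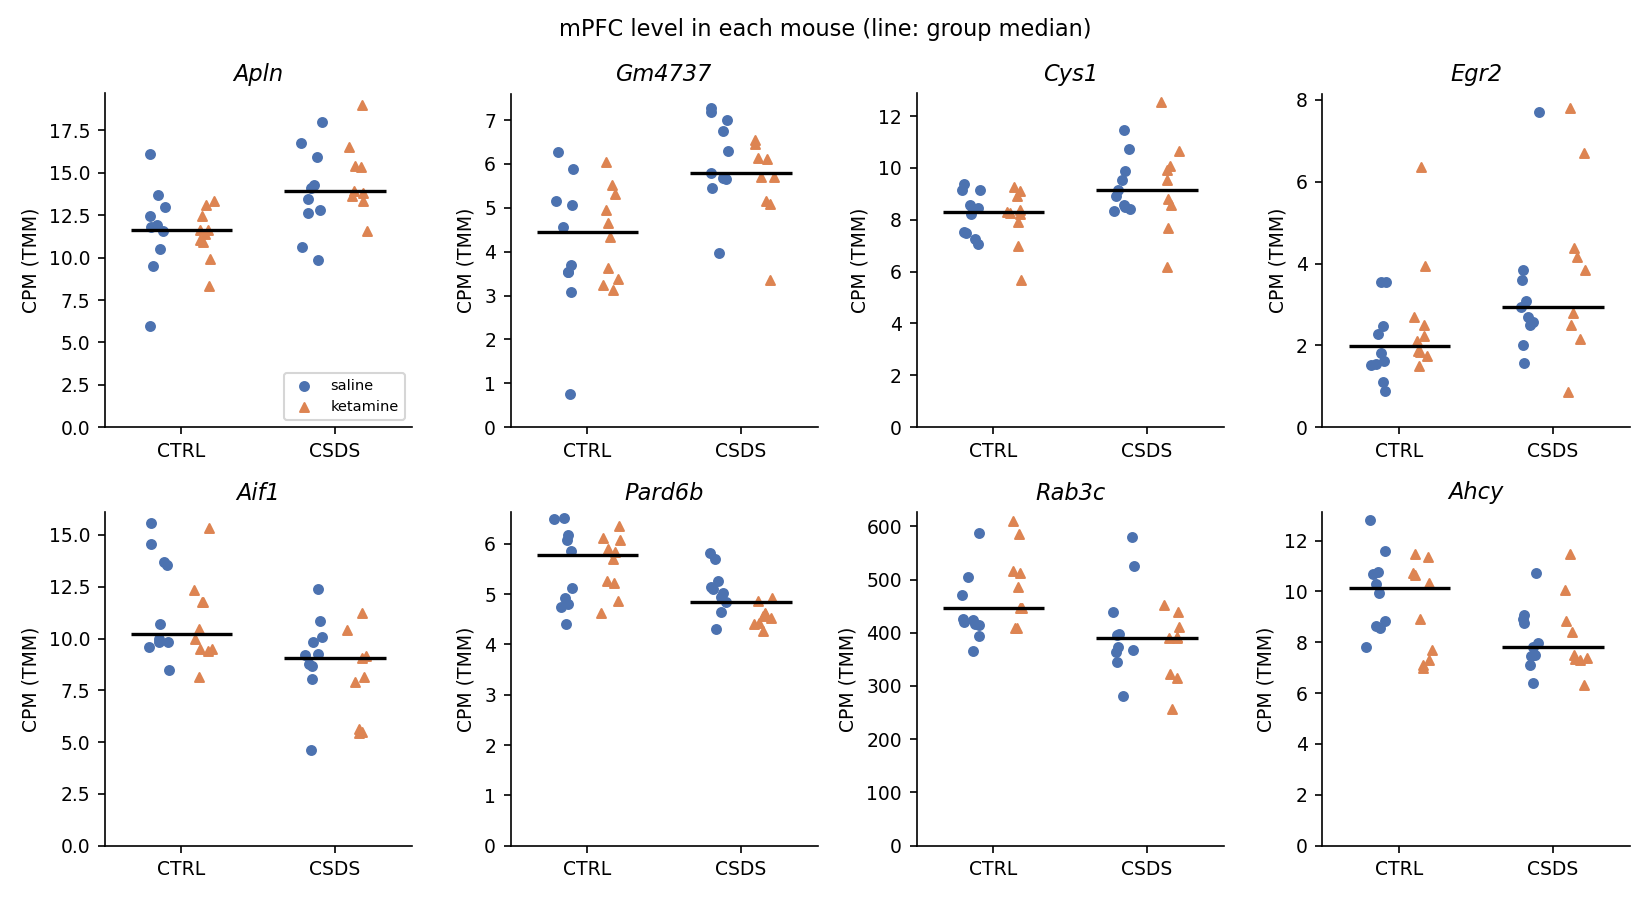
Levels in CPM of 8 genes in each mPFC library, saline as circles and ketamine as triangles, with the group median as a line and each axis starting at 0. CSDS and CTRL mice overlap in every panel, with medians of 13.9 and 11.6 CPM for *Apln* and 9.08 and 10.2 CPM for *Aif1*.

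Cage was not in the labels, so runs of 4 consecutive mouse numbers, 5 per stress group, stood in for it. The means of the 5 CSDS runs did not overlap those of the 5 CTRL runs for 4 of the 12 higher genes, *Apln*, *Gm4737*, *Cys1* and *Fam189a2*, and for 3 of the 12 lower genes, *Pard6b*, *Slc25a24* and *Slc16a13*. Across the 15691 genes of at least 1 CPM this was so for 14 genes higher (0.0892%) and 10 genes lower (0.0637%). The run means of *Apln* were 13.1 to 16.7 CPM in CSDS and 10.3 to 12.4 CPM in CTRL mice. Since the 24 genes were ranked on the same libraries, these shares describe them and add no separate evidence.

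*H2-T22* and *H2-T23* had a pattern of another kind. They encode nonclassical MHC class I molecules that receptors of natural killer or γδ T cells recognize, and they lie side by side (chr17:36037128-36042747 and chr17:36029773-36032855, both on the minus strand). *H2-T22* was at 8.65 to 11.9 CPM in 8 mice and at 0.103 to 1.04 CPM in the other 31, with no mouse in between. The 8 mice were 7 of 19 CSDS mice (2, 3, 6, 11, 12, 15 and 20) and 1 of 20 CTRL mice (22). The fitted LFC of 1.74 (SE 0.509, p = 0.00141) thus stands for a share of mice at the upper level and not for a shift of the whole group, whose medians were 0.828 and 0.690 CPM.

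The same 8 mice held the 8 highest *H2-T23* levels in the mPFC, 6.59 to 9.74 CPM against 0.828 to 2.65 CPM in the rest. Their *H2-T23* ranges overlapped in the vHipp, at 1.675 to 4.107 CPM against 0.4712 to 2.122 CPM. In the vHipp, the same 8 mice were at 6.99 to 9.40 CPM of *H2-T22* and the other 31 at 0.336 to 1.52 CPM, so each mouse was at the upper or the lower level in both regions. By treatment, 5 of the 7 CSDS mice had received ketamine and 2 saline, and they came from all 5 runs. Without CTRL mouse 22 the LFC of *H2-T22* was 2.49. Genes of this family are near-identical copies, and reads may be split between them. The cause of the 2 levels was not tested. *Aif1* and *Glp1r* lie on the same chromosome, and 4 of the 24 genes are on chromosome 17.

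**Figure D3:**
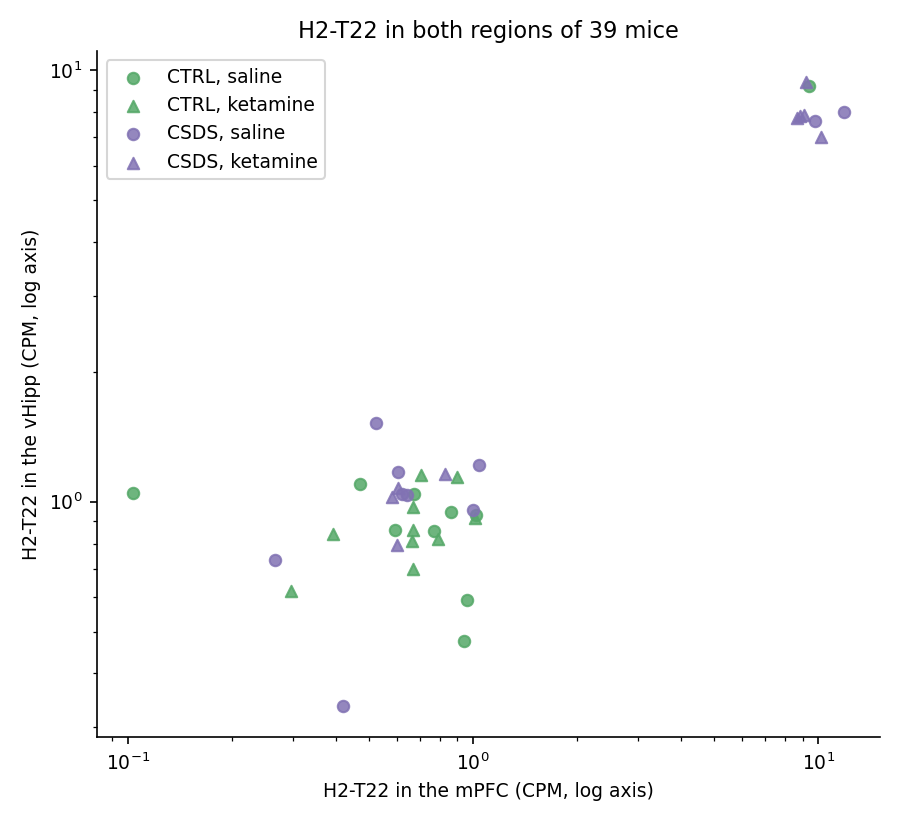
*H2-T22* in the vHipp against the mPFC of the same 39 mice, both in CPM on log axes, by stress group (color) and treatment (shape). The 8 mice at the upper level, 7 CSDS and 1 CTRL, are apart in both regions, at 8.65 CPM or more in the mPFC and 6.99 CPM or more in the vHipp.

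Among the 26 lists, immediate early genes had the most members higher in CSDS mice over both treatments. Of 20 genes, 4 (*Egr2*, *Egr1*, *Ier2* and *Nr4a1*) had a p under 0.05 and were higher and 0 were lower, beside a background of 1.45% higher over all genes tested. With runs modelled as random effects in limma-voom the count was 1, *Egr2*, with p = 0.0537 for *Egr1*, 0.0743 for *Ier2* and 0.0744 for *Nr4a1*. The LFC was above 0 for 17 of 20, against 53.7% of genes of at least 1 CPM, with a median of 0.07 against 0.00415. Members of this list are induced together in the same cells, so they are not independent of each other.

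*Egr2*, a zinc finger transcription factor of activated neurons, was at 0.849 to 7.81 CPM in CSDS mice (median 2.95) and 0.890 to 6.35 CPM in CTRL mice (median 1.99). The ranges were nearly the same, but 17 of 19 CSDS mice were above the CTRL median. The LFC was 0.62 (SE 0.210, 95% interval 0.20 to 1.05, p = 0.00480), at 0.68 with saline (p = 0.0300) and 0.57 with ketamine (p = 0.0623). In the vHipp it was 0.45 (p = 0.0792).

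*Egr1*, its more abundant relative and a common activity marker, reached 276 CPM in CSDS mice (median 183) and 229 CPM in CTRL mice, with an LFC of 0.27 (p = 0.0181). *Ier2* had an LFC of 0.24 (p = 0.0214) and *Nr4a1*, an orphan nuclear receptor induced by calcium, 0.23 (p = 0.0465). *Fos* and *Arc* missed the threshold with wide intervals, *Fos* at 0.41 (-0.01 to 0.84, p = 0.0579) and *Arc*, which trims AMPA receptors from synapses, at 0.38 (-0.01 to 0.78, p = 0.0584). *Npas4* (0.04), *Egr3* (0.05) and *Homer1* (-0.04) were close to 0. These 5 list members are named after their values were seen, as common activity markers.

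The count of 4 rested on a few mice. It fell to 2 without CSDS mouse 15, whose *Egr2* level of 7.71 CPM was the highest of its group of 10, and rose to 7 without CTRL mouse 36, the highest CTRL mouse at 6.35 CPM. Without single sets of mouse numbers it ranged from 1 to 9. *Nr4a1* kept a p under 0.05 in only 23 of 55 alternatives. By treatment, 3 of the 20 genes were higher with saline (median LFC 0.16), where 1.38% of all genes were, and 0 with ketamine (median 0.04), where 2.42% were. In the vHipp 1 was higher and 3 were lower (median 0.05), beside 5.28% and 4.37% of all genes. *Egr2* itself kept a p under 0.05 without any single mouse, with an LFC between 0.51 and 0.74.

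**Figure D4:**
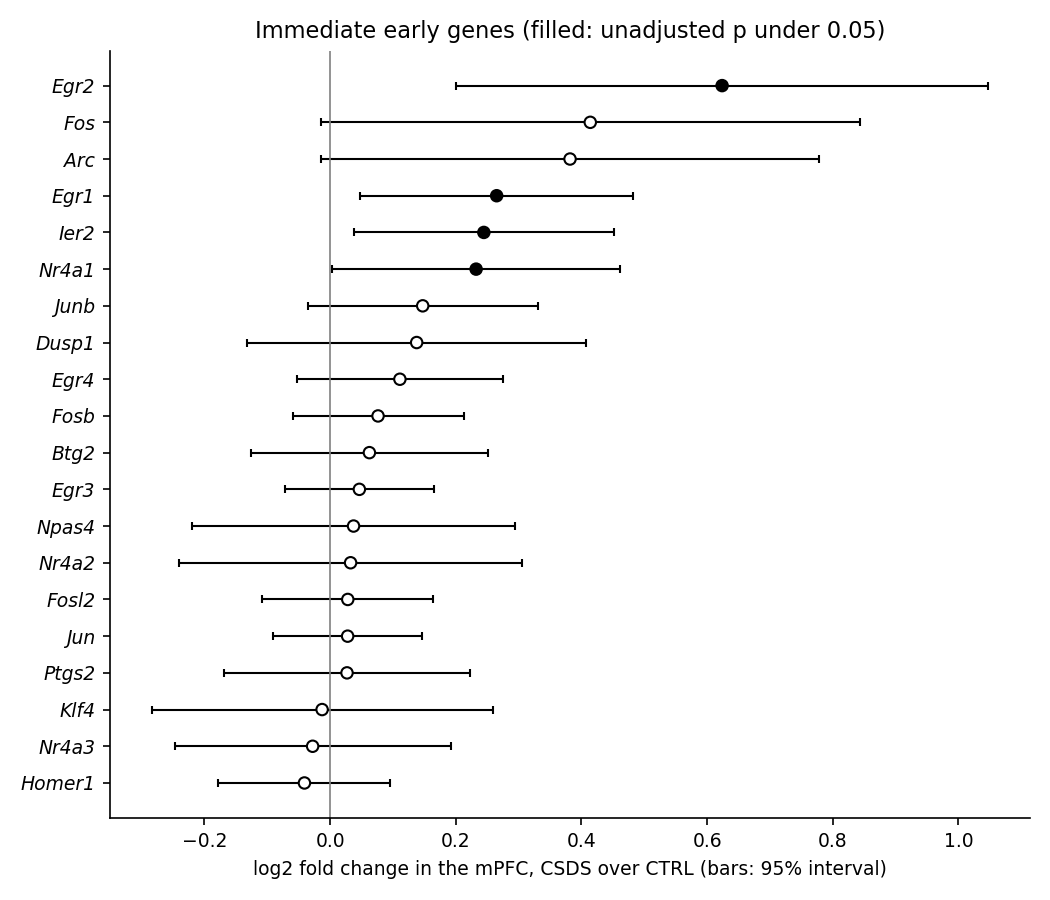
Log2 fold change of CSDS over CTRL in the mPFC for 20 immediate early genes, with 95% intervals, filled where the unadjusted p is under 0.05. *Egr2*, *Egr1*, *Ier2* and *Nr4a1* are filled, and 17 of 20 points lie above 0.

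The promoters of these genes are shown because many immediate early genes respond to cyclic AMP and calcium through CREB, which binds the cyclic AMP response element TGACGTCA or its shorter core TGACG. RefSeq promoters (GRCm38.p6, 300 bases, from 250 before to 50 after the start) were matched for 16 of the 20 genes. *Egr1* and *Ier2* had no match, so among the genes with a p under 0.05 the shares cover only *Egr2* and *Nr4a1*. The core, searched on both strands and counted also where it is part of the full element, was present in 13 of 16 (81.3%), against 20.8% of all 32851 promoters, and the full element in 2 of 16 (*Btg2* and *Dusp1*), against 1.79%. *Nr4a1* (chr15:101266596-101266895, plus strand) holds 4 copies of the core and *Egr2* (chr10:67535249-67535548, plus strand) none, and the capitals mark TGACG or its reverse complement CGTCA. A match is a stretch of letters and not a measured binding site.
Nr4a1: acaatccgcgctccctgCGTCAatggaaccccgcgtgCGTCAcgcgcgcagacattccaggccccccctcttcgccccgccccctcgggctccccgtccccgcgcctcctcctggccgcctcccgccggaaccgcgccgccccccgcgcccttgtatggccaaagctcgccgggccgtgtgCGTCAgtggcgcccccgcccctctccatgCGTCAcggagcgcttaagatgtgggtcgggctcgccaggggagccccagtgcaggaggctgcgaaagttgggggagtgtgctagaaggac
Egr2: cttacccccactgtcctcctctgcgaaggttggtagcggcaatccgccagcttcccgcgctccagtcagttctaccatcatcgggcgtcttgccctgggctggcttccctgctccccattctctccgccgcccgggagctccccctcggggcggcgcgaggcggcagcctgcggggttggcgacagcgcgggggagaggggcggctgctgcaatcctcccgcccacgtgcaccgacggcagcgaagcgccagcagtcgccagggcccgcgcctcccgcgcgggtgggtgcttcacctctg

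Genes of the stress hormone axis showed little. Of 20 glucocorticoid-responsive genes, 0 were higher and 1 was lower, with a median LFC of -0.02. This count and those of the other lists in the mPFC stand beside 1.45% higher and 1.72% lower over all genes tested. The lower member was *Hif3a*, an inhibitory subunit of the hypoxia-inducible factors that glucocorticoids induce, at -0.25 (p = 0.0244). *Fkbp5*, the co-chaperone that dampens the glucocorticoid receptor, was at 18.2 to 32.4 CPM in CSDS mice (median 21.6) and 19.7 to 29.2 CPM in CTRL mice (median 22.0). Its LFC of -0.03 had a 95% interval from -0.13 to 0.08.

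*Sgk1* (-0.05, interval -0.15 to 0.05) and *Tsc22d3* (0.03, -0.10 to 0.17), both classical targets of the receptor, were as close to 0. The receptors *Nr3c1* (0.00, -0.11 to 0.12) and *Nr3c2* (-0.03, -0.24 to 0.18) did not pass either. Of 16 stress axis receptors and peptides, 1 was lower, the vasopressin receptor gene *Avpr1a*, at a median of 0.171 CPM in CSDS and 0.239 CPM in CTRL mice. Its LFC of -0.89 (p = 0.0364) was -0.41 and no longer past the threshold (p = 0.227) without the CTRL mouse at 2.32 CPM, mouse 26, which was also the highest in *Glp1r*. *Crh*, the stress peptide also made by cortical interneurons, was at -0.10 (-0.34 to 0.14).

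Plasticity and transmitter genes gave few candidates. Of 18 genes of BDNF, TrkB and mTOR signaling, 0 had a p under 0.05 and their LFC lay between -0.07 and 0.08, with *Bdnf* at 0.01 (-0.13 to 0.14). Of 22 glutamate receptor subunits, 0 had a p under 0.05, with a median of -0.02. Among 18 GABA genes, only *Gabrd*, the subunit of extrasynaptic receptors, had one, at 0.14 (p = 0.0314) in the mPFC and -0.28 (p = 0.0235) in the vHipp, a difference between regions with a p of 0.00260. Among 12 serotonin receptors *Htr7* was higher at 0.22 (p = 0.0348), with 0.01 under saline and 0.45 under ketamine. Of 12 genes of perineuronal nets, the matrix around inhibitory neurons, *Has2*, a hyaluronan synthase, was lower at -0.50 (p = 0.018), with medians of 0.342 CPM in CSDS and 0.507 CPM in CTRL mice.

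Stress response and clock lists gave a handful of members. Of 22 heat shock and ER stress genes, 3 were higher, beside 1.45% of all genes tested, the paired HSP70 genes *Hspa1a* and *Hspa1b*, both at 0.21 (p = 0.0414 and 0.0161), and *Ddit3*, the transcription factor CHOP, at 0.11 (p = 0.0438). *Hspa1a* and *Hspa1b* are near-identical copies, and reads may be split between them. Of 17 clock genes *Tef* was higher at 0.06 (p = 0.0476), and 13 had an LFC above 0. None of 16 antioxidant genes, 13 mitochondrially encoded genes, 37 nuclear complex I genes or 78 ribosomal protein genes had a p under 0.05.

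The inflammation and interferon lists held 3 members with a p under 0.05. Of 16 inflammation genes, 2 were lower, beside 1.72% of all genes tested, complement *C3* at -0.75 (p = 0.0234) and *Lcn2*, the acute phase protein lipocalin 2, at -2.14 (p = 0.00101), and 0 were higher. *C3* missed the threshold without CTRL mouse 25 (-0.63, p = 0.0507) and without CTRL mouse 26 (-0.60, p = 0.0566). *Lcn2* was at 0 to 0.921 CPM in CSDS mice and 0 to 6.17 CPM in CTRL mice, with CTRL mice 29 (6.17 CPM) and 40 (3.62 CPM) above all others, and without mouse 29 its LFC was -1.33. The same 2 mice were the highest in the vHipp, at 3.50 and 1.84 CPM. Of 22 interferon-stimulated genes, *Trim30a* was lower at -0.26 (p = 0.0433), and the median was -0.08.

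Few of the list members outside the 24 genes held their call. Of 17 with a p under 0.05, 13 lost it with the run as a random effect and 12 without at least 1 single mouse. *Lcn2*, *Has2*, *Hspa1b* and *Mfsd2a* kept it in both, but not in every alternative. With counts summed per run *Has2* and *Mfsd2a* lost it, and each of these genes lost it when some set of mouse numbers was left out. *Nr4a1* lost it without any 1 of 24 mice, *Trim30a* of 21, *Tef* of 19, *Hspa1a* of 17, *Ddit3* of 16 and *Htr7* of 9.

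Summed cell type markers differed between the groups by less than the spread between mice. None of the summed levels of 10 marker lists passed a permutation test (smallest p = 0.0616, choroid plexus, adjusted 0.616), and within the lists of interneuron, excitatory layer, astrocyte, meningeal, striatal and hemoglobin genes 0 members had a p under 0.05. *Mfsd2a*, a lipid transporter of the blood-brain barrier, was the only one of 17 endothelial genes, at -0.18 (p = 0.0146). The myelin genes varied widely between mice, with summed levels up to 7970 CPM in CSDS and from 1156 to 8107 CPM in CTRL mice, and 21 of 23 had an LFC above 0 without any passing, at a median of 0.10.

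*Ttr*, the thyroxine carrier of the choroid plexus, had an LFC of -1.98 (p = 0.00568) that rested on CTRL mice 34 (24.3 CPM), 24 (10.8 CPM) and 31 (10.1 CPM). The medians were 0.270 CPM in CSDS and 0.316 CPM in CTRL mice. Without CTRL mouse 24 the p was 0.0705, and without mice 1, 24, 31 and 34 the LFC turned to 0.55 (p = 0.259). *Clic6*, another choroid plexus gene, was at -0.66 (p = 0.0277), but at -0.39 (p = 0.119) without CTRL mouse 26, its highest at 3.71 CPM. With *Ttr*, 2 of 9 genes of that list were lower, beside 1.72% of all genes tested. With runs as random effects 0 were, at p = 0.537 for *Ttr* and 0.0885 for *Clic6*, and *Ttr* was at -0.30 (p = 0.622) in DESeq2. Only 2 of the 9 had a mean of at least 1 CPM.

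With saline and with ketamine the stress contrasts have no mouse in common. With saline 852 genes (2.94%) had a p under 0.05 and with ketamine 1681 (5.80%), 0 of either after adjustment by edgeR or DESeq2. The lists shared 75 genes, 8.80% of the saline genes and 4.46% of the ketamine genes, of which 30 had the same direction and 45 the opposite. Just 4 genes of at least 1 CPM had the same direction with a p under 0.05 in both, *Apln*, *Aif1*, *Slc25a24* and *Cys1*. The test of the difference between treatments gave 1539 genes (5.31%) without adjustment and 0 after it (smallest adjusted p = 0.771). Of the 24 genes, 5 had a p under 0.05 in it, *Gm15832*, *H2-T22*, *H2-T23*, *Cd274* and *Fam189a2*.

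In the vHipp the same comparison gave 2798 genes (9.65%) without adjustment, 1530 of them (5.28%) higher. After adjustment edgeR called 0 (smallest adjusted p = 0.256), while DESeq2 called 22 (0.0759%), with 0 of the 24 mPFC genes among them and 2644 without adjustment. Of the 24 mPFC genes, 6 had the same direction with a p under 0.05 there, *Apln*, *Gm4737*, *H2-T22*, *H2-T23*, *Glp1r* and *Ahcy*, and 1, *Ttr*, had the opposite. The test of the difference between regions took the mPFC stress effect less the vHipp one, without a mouse term unless the block is named. It gave 2112 genes (6.70%) without adjustment, and 3.23% of all genes tested were among them and lower in the mPFC. After adjustment it gave 1, the predicted gene *Gm15478* annotated as antisense and named for this call alone, at a mean of 0.0198 CPM, and with the mouse as a replicate block it gave 0.

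The microglia, astrocyte, endothelial, mitochondrial and ribosomal lists had more members higher in the vHipp. There 11 of 18 microglia markers, 8 of 13 astrocyte markers, 11 of 17 endothelial genes and 11 of 13 mitochondrially encoded genes were higher, against 0 of each in the mPFC. The difference itself had a p under 0.05, lower in the mPFC, for 5, 4, 6 and 9 of them, beside a background of 3.23%, and with the mouse as a replicate block for 7, 4, 6 and 12, beside 3.04%. For 78 ribosomal protein genes, 31 were higher in the vHipp and 0 in the mPFC, and 7 passed the test of the difference, or 33 with the block. Of 37 nuclear complex I genes, 0 passed it without the block and 5 with it. Of 22 interferon-stimulated genes 5 were lower in the mPFC in both fits, at a vHipp median of 0.22, while 0 of 23 myelin genes passed in either. In the other direction, the difference was above 0 for 4 of 17 clock genes (7 with the block) and 3 of 20 immediate early genes (4 with the block), beside 3.47% of all genes (4.79% with the block), and below 0 for 0 of each. Choroid plexus genes had a median LFC of 1.34 in the vHipp and -0.155 in the mPFC. In the vHipp 5 of 9 were higher, beside 5.28% of all genes, and 0 in the mPFC. The test of the difference was passed by 4 of 9, and by 2 with the block. *Ttr* was at 654 CPM in the vHipp of CSDS mouse 9 and 66.1 CPM in that of mouse 13. What part dissection had in the vHipp values was not tested.

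**Figure D5:**
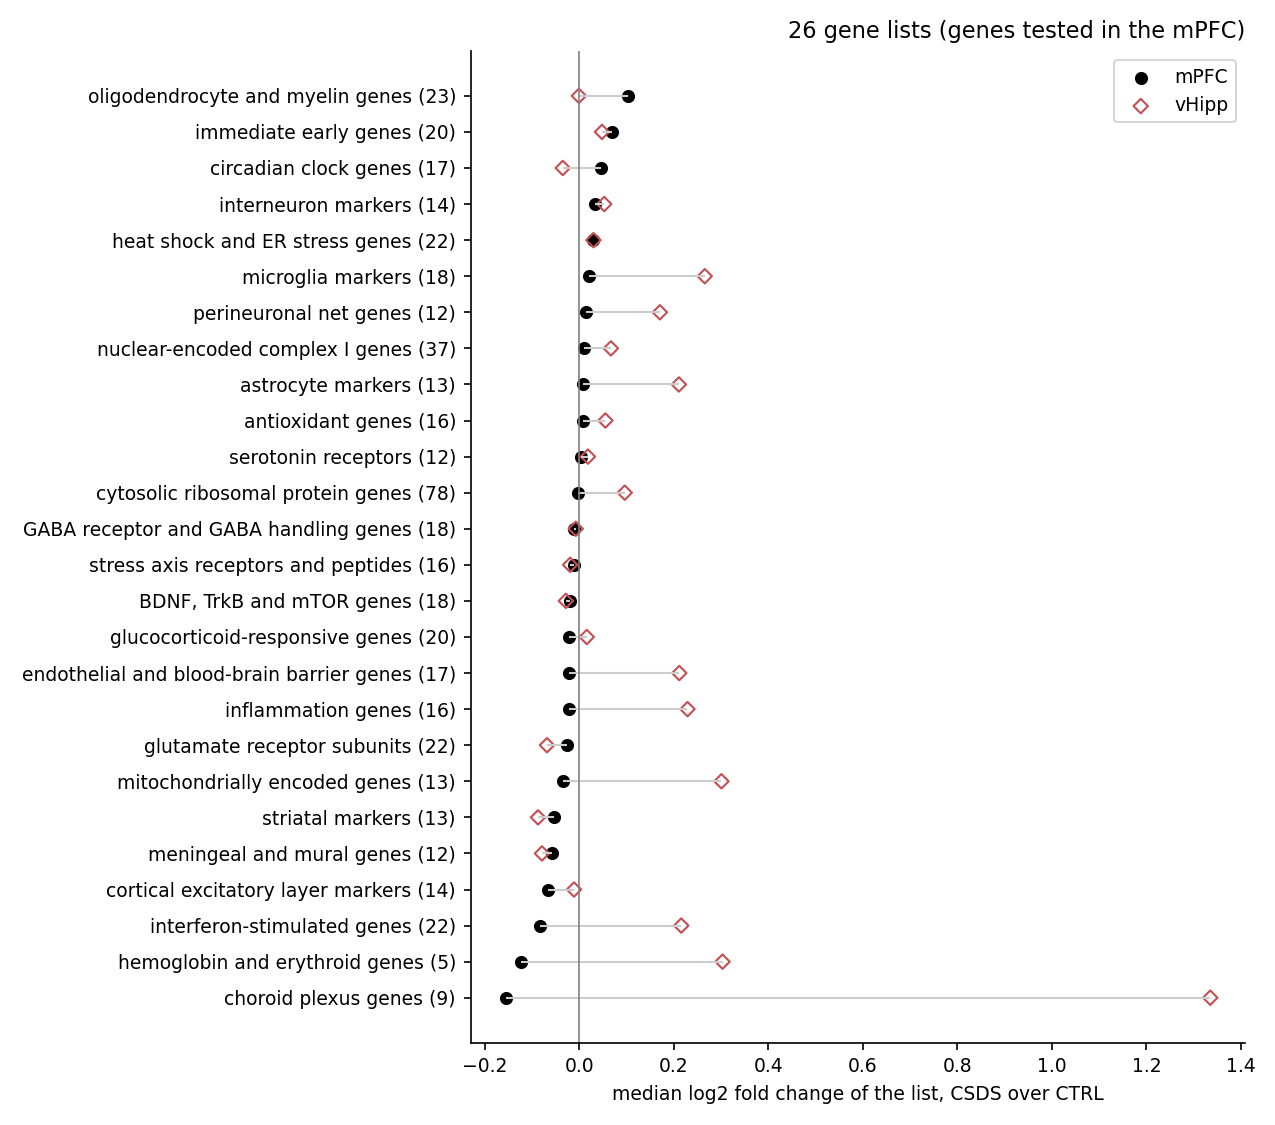
Median log2 fold change of CSDS over CTRL for 26 gene lists in the mPFC (filled circles) and the vHipp (open diamonds), with the number of genes tested in brackets. In the mPFC all medians lie between -0.155 and 0.10. Microglia, astrocyte, endothelial, mitochondrially encoded, interferon-stimulated, inflammation, hemoglobin and choroid plexus genes stand at 0.21 or more in the vHipp, with choroid plexus highest at 1.34.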

How the data were processed

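RNA of mPFC and vHipp punches was sequenced by the authors as stranded mRNA libraries, 1 per mouse and region, and replicates are separate mice. The deposited values are raw counts, whole numbers per gene without normalization, on GRCm38, with bcl2fastq 2.20.0.422 and CASAVA in the submitters' processing notes. The aligner and counting program are not given in the sources used here. Samples with an RNA integrity number below 8 and 1 outlier, not named, were removed by the authors. Gene symbols and positions came from GENCODE (55144 of 55471 identifiers matched). Groups and mouse numbers came from the sample titles.

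Genes with over 10 counts in total and counts in over 3 mPFC libraries were tested with edgeR 4.0.16 (R 4.3.3), TMM normalization and the quasi-likelihood test, with stress and treatment as terms, two-sided, Benjamini-Hochberg adjusted over all genes. The study's own model had the SB as covariate, which lies within a stress group here. A fit of 4 group means gave the stress effect with saline, with ketamine and their difference. A fit of all 79 libraries without a mouse term gave the region difference, and the p-values of single genes for it are unpaired. Mouse numbers pair the regions, since both libraries come from the same mouse. This pairing was used only in the fit with the mouse as a replicate block. Alternatives were DESeq2 1.42.0, RLE normalization, other filters, 4 group means, no treatment term, sets of mouse numbers (a run of 4 CSDS numbers with a run of 4 CTRL numbers) as covariate or left out, limma-voom (limma 3.58.1) with the run as random effect, sums per run, 2 surrogate variables (sva 3.50.0), and each mouse left out. Within-run correlation was 0.0849. Depth was 11726129 to 34501588 counts per mPFC library, and no 2 libraries were identical. The models were tested on simulated data before use. Single measures were compared with permutation tests (scipy 1.17.1).

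Named genes were the 12 of smallest p in each direction among genes with a mean of at least 1 CPM, the members of 26 fixed lists with an unadjusted p under 0.05 or else the smallest p, and 7 stress and plasticity genes. Genes outside this rule with LFC values are marked where they are named. The comparison, lists and rule were chosen with earlier results of these data known.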

Additional observations from a re-analysis of the deposited data

Results flagged for a closer look

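Lone libraries were looked for in each of the 4 mPFC groups of 9 or 10 mice, for the 24 genes of smallest p and for total counts. Of 100 sets of values, 13 had a lone value by Dixon's criterion, where chance gives about 1 in 20. CTRL mouse 22 (saline) was apart in *H2-T22* at 9.40 CPM (next 1.02) and in *H2-T23* at 7.86 CPM. *Glp1r* had a lone value in mouse 26 (25.7 CPM, next 3.57) and in mouse 35 (9.07 CPM), both CTRL, and mouse 35 was also lone in *Aasdh* at 14.8 CPM. *Ttr* was lone in CTRL mice 34 (24.3 CPM) and 24 (10.8 CPM). *Egr2* was lone in CSDS mouse 15 (7.71 CPM) and CTRL mouse 36 (6.35 CPM). *Gm4737* was low in CSDS mouse 12 (3.35 CPM, next 5.08), and *Gm15832* was high in CSDS mouse 13 (5.39 CPM). Total counts were lone in CSDS mouse 4 (34501588) and CTRL mouse 23 (34135805).

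The stress LFC with ketamine minus that with saline was different from 0 at an unadjusted p under 0.05 for 7 of 61 named genes, beside 5.31% of all genes tested. It was 2.27 for *H2-T22* (p = 0.0239), 1.17 for *H2-T23*, 0.44 for *Htr7*, 0.22 for *Fam189a2*, -0.20 for the striatal marker *Pde10a*, -0.42 for *Cd274* and -0.70 for *Gm15832* (p = 0.00897). For *H2-T22* the values are set by which mice were at the upper level, 5 CSDS mice with ketamine and 2 with saline against 1 CTRL mouse with saline and 0 with ketamine.

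The mPFC stress LFC less the vHipp one was different from 0 at an unadjusted p under 0.05 for 7 of the 24 genes, beside 6.70% of all genes tested. The 24 were chosen for a small p of the mPFC value that enters this difference, so the count is a description. It was -6.54 for *Ttr* (p = 7.43e-06), where mice 24, 31 and 34 were high in the mPFC and CSDS mice 9 (654 CPM), 13 (66.1 CPM) and 1 (9.50 CPM) in the vHipp, where no CTRL mouse was above 7.61 CPM. It was -0.42 for *Cd274*, 0.29 for *Cys1*, 0.19 for *Prim2*, 0.15 for *Tstd2* (p = 0.00294), 0.15 for *Aasdh* and 0.12 for *Ndufaf1*. None of these genes passed after adjustment.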

How the results depend on the processing

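The count of 0 genes after adjustment was the same under all 55 alternatives, and the smallest adjusted p was 0.0699, without CTRL mouse 22. The unadjusted count of 920 genes (420 higher) was 1590 (745 higher) with no filter, where 38131 genes were tested, 360 (218 higher) with filterByExpr, where 17887 were, 430 (197 higher) with the run as a random effect in limma-voom, and 573 (243 higher) with counts summed per run. Leaving out single mice gave 372 to 505 genes higher and 449 to 551 lower, and 0 after adjustment. With saline the unadjusted count was 562 with DESeq2 and 1437 with no filter. The one gene of the region comparison was lost (count 0) with the mouse as replicate block and with DESeq2, and 2466 genes without adjustment under the block compare with 2112. The replicate block applies to that comparison alone, since an mPFC library of one mouse has no partner in the mPFC.

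Of the 24 genes, 15 had a p under 0.05 in every alternative, among them *Apln*, *Aif1*, *Egr2*, *Pard6b* and *Rab3c*, and the other 9 lost it in 1 to 5. *Ttr* turned to 0.55 without mice 1, 24, 31 and 34, an alternative chosen after the data were seen. Treatments came from the labels, which differ from the paper for some mouse numbers. Cage and rank could not enter, genes under 1 CPM had a median standard error of 0.405, and cell types were mixed in each punch.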

Other observations

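Some lists with a pooled LFC close to 0 held opposite values with each treatment. Nuclear-encoded complex I genes, subunits of the first enzyme of the respiratory chain, had a median stress LFC of -0.05 with saline and 0.09 with ketamine, and for 10 of 37 the difference (ketamine minus saline) was above 0 at an unadjusted p under 0.05, beside 5.31% of all genes tested in either direction. Of 78 ribosomal protein genes, 7 had such a difference. Glutamate receptor subunits ran the other way, with medians of 0.04 and -0.09 and a difference below 0 for 5 of 22. Myelin genes had the widest gap, with medians of -0.16 and 0.39, but 1 of 23 passed, and *Mbp*, the myelin basic protein gene, named after its values were seen, had a p of 0.279 in the difference. No gene passed an adjusted p under 0.05 in the difference with edgeR or DESeq2.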
